A study of Mus musculus with 8 samples.

Results

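Collagens and the enzymes that modify them were followed in mouse mammary gland tissue over a day after an injection of 17β-estradiol (E2), the main circulating estrogen. The set was taken by gene symbol and by no measured value. It held every gene with a symbol of the form Col, number, a, number (such as Col1a1), the lysyl hydroxylases Plod1, Plod2 and Plod3, the prolyl 4-hydroxylase subunits P4ha1, P4ha2 and P4ha3, and the lysyl oxidases Lox, Loxl1, Loxl3 and Loxl4. These were 52 of the 18193 genes with a named probe set, 42 of them collagens and 10 enzymes. A mean level at or above the 40th percentile of all genes (7.72 on the log2 scale, an intensity of 211) was asked of a gene before it was tested. Of the 52, 35 passed, namely 8 of 11 fibrillar collagens, 5 of 6 type IV collagens, 13 of 25 other collagens and 9 of 10 enzymes. Loxl4 (7.74) and Col20a1 (7.77) lay just inside that limit, and Col23a1 and Col6a4 (7.60 each) just outside. Loxl2, Col6a6, Col21a1 and Col28a1 were not analysed here.

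The tissue was the inguinal mammary gland of virgin mice aged 12 to 13 weeks. Every mouse had been gonadectomized (GDX in the labels), the controls included, so that no group had its own ovarian estrogen. The vehicle group had 2 arrays, both titled 24 h, and E2 had 1 array at each of 6 times after a subcutaneous injection. The times were read from the sample titles, because the sample descriptions give 24 h throughout. Before 24 h there was therefore no matching vehicle array, and at those times E2 cannot be told apart from the injection or the time of day. The labels write the dose with a microgram and a milligram unit at once, so none is given, and the sources used here do not say whether an array held RNA of 1 mouse or of several. For tests, the arrays at 1, 3 and 6 h formed an early window (n = 3) and those at 12, 18 and 24 h a late window (n = 3), each set against vehicle (n = 2). Nothing shows that these arrays are independent animals, so p-values measure only the spread between arrays, which may be technical. Within a window that spread also includes change between its 3 times. A gene that moved inside a window therefore got a wider interval and a larger p.

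Collagen chains are made in the endoplasmic reticulum, where prolyl 4-hydroxylases make the hydroxyproline that keeps the helix stable and lysyl hydroxylases make hydroxylysine, the anchor for sugars and for strong cross-links. Outside the cell, lysyl oxidases oxidise lysine and hydroxylysine, and the products join neighbouring molecules into fibrils that resist stretch. Fibrillar collagens form the stroma around the ducts, type IV collagen forms the network of the basement membrane under epithelium, around fat cells and around vessels, and the other collagens decorate fibrils or form fine filaments. In the mammary gland, ducts grow under estrogen into fat and stroma, and the basement membrane and the stiffness of the stroma are known to shape that growth.

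The arrays were alike in scale, with median intensities between 173.9 and 180.49. Markers with a named probe set were looked up for the cells that a mammary fat pad holds. For fibroblasts 13 of 14 and for adipocytes 12 of 12 passed the level limit. For luminal epithelium 14 of 14 passed, and for myoepithelium 7 of 10. Krt14, Krt17 and Trp63, which define basal cells, did not. Of 10 keratinocyte markers only 1 passed, and of 8 for cartilage and bone only 2. Skeletal muscle was present, with 20 of 22 markers above the limit, and its mean moved between arrays: 0.18 and -0.18 on the vehicle arrays around their mean, then 0.78, 0.62, 1.22, 0.19, 0.80 and 0.92 at the E2 times in order. In such bulk tissue, fewer cells of a type and less RNA per cell cannot be told apart. The collagen set itself was a little higher on vehicle array 1 than on vehicle array 2, in 29 of 35 genes (82.9%, against 47.7% of all genes tested), by a median of 0.07 on the log2 scale and by at most 0.23.

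Plod2, which encodes the lysyl hydroxylase of collagen telopeptides, was the one member that rose at least 1.5-fold above both vehicle arrays. It did so at 3 and 6 h and was back at the vehicle level by 12 h. By its brightest probe set, every other member stayed within 1.5-fold of the vehicle arrays (0.58 on the log2 scale). In the window comparisons limma called 0 of 35 members at an adjusted p below 0.05 for early against vehicle and for late against vehicle (background: 0% of 10916 genes in each), and 0 of 35 for late against early (background: 0.55%). At an unadjusted p below 0.05 the same limma comparisons had 1, 3 and 3 members (2.86%, 8.57% and 8.57%), beside a background of 5.38%, 7.6% and 19.1% of all genes. The median difference of the 35 members was 0.05 in the early window and 0.01 in the late window, beside 0.01 and -0.01 for all genes tested. The 95% interval of the difference lay within 1.5-fold either way for 34 of 35 members in the early window and for 35 of 35 in the late window (97.1% and 100%, beside 97.8% and 98% of all genes tested). The exception was Plod2. The heat map of log2 differences by array shows 1 dark row among pale ones, the Plod2 row.

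**Figure D1:**
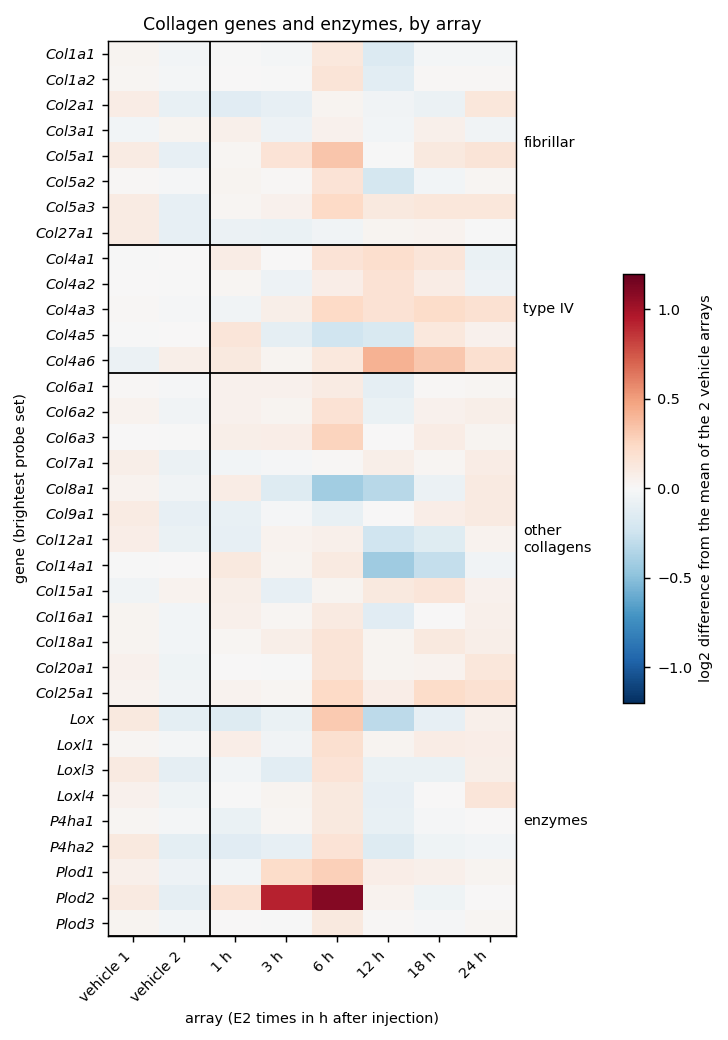
Log2 difference of each of the 35 tested genes from the mean of the 2 vehicle arrays (colour), with genes in rows by class and the 8 arrays in columns. Plod2 stands at 0.92 at 3 h and 1.11 at 6 h, and the next farthest cells are Col14a1 at 12 h (-0.43), Col4a6 at 12 h (0.42) and Col8a1 at 6 h (-0.42).

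Plod2 read 1353 and 1167 intensity units on the vehicle arrays, then 1418, 2384, 2705, 1292, 1211 and 1260 on the E2 arrays from 1 to 24 h, the order used for every gene. The 3 and 6 h arrays stood far above both vehicle arrays, the 1 h array stood slightly above them, and the 3 late arrays lay between the vehicle arrays. At 3 h Plod2 was 1.90-fold and at 6 h 2.15-fold above the vehicle mean. A limma fit of 7 group means has 1 residual degree of freedom and takes each lone array to vary as the vehicle arrays do. It gave an adjusted p of 0.0349 for the 3 h array and 0.0277 for the 6 h array (background: 0.595% and 0.366% of genes), and called 0 members on the 1, 12, 18 or 24 h array (background: 0.0641%, 0.0366%, 0% and 0%). Against each vehicle array by itself the difference was 0.82 and 1.03 at 3 h and 1.00 and 1.21 at 6 h. The second Plod2 probe set traced the same course, at 0.30, 1.10, 1.27, 0.08, -0.09 and -0.12 from 1 to 24 h, so the rise did not hang on the choice of probe set. It was the single member at least 1.5-fold above both vehicle arrays, at 3 h and at 6 h, where 0.568% and 0.586% of all genes were. No member was that far above on the arrays at 1, 12, 18 or 24 h (background: 0.293%, 0.147%, 0.211% and 0.192%). None was that far below in order of time either (background: 0.0275%, 0.229%, 0.156%, 0.0641%, 0.0183% and 0.0275%).

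Averaged over the early window, which mixes the 1 h array with the other two, Plod2 lay 0.73 ± 0.215 (SE, 95% interval 0.25 to 1.22) above vehicle, and limma did not call it (adjusted p = 0.684). The late window lay -0.74 ± 0.193 from the early one, also without a call in limma (adjusted p = 0.118). The 1 h array decided both calls. Without the 1 h array the early difference was 1.02 (limma, adjusted p = 0.0037) and the late minus early difference -1.02 (limma, adjusted p = 0.00109). That fit also called more genes of all kinds, 49 and 232 in these comparisons. Without the 6 h array the differences were 0.55 and -0.55, without a call. Skeletal muscle markers averaged 0.62, 1.22, 0.80 and 0.92 at 3, 6, 18 and 24 h, beside 0.92, 1.11, -0.05 and 0.00 for Plod2. With the muscle marker mean in the fit the early difference of Plod2 was 0.51 (limma, adjusted p = 0.463) and the late minus early difference -0.68 (limma, adjusted p = 0.0689). The part of muscle in the early value was not tested further.

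Plod1 and Plod3, the other lysyl hydroxylase genes, covered far smaller ranges. Plod1, the enzyme of the helical part of collagen, read 1479 and 1352 on the vehicle arrays, then 1379, 1644, 1725, 1490, 1472 and 1449. Its 3 and 6 h arrays were the highest of the 8, and the early window overlapped vehicle because of the 1 h array. The early difference was 0.16 ± 0.0873 (limma, adjusted p = 0.935), and the single times gave 0.22 at 3 h (7 group means in limma, adjusted p = 0.774) and 0.29 at 6 h (adjusted p = 0.483). A dimmer Plod1 probe set, below the level limit, showed 0.23 and 0.29 at those times. Plod3, which also adds sugars to hydroxylysine, read 2214 and 2109 on the vehicle arrays, then 2167, 2158, 2350, 2186, 2142 and 2197. Only its 6 h array left the vehicle range, and its early difference was 0.04 ± 0.0537.

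**Figure D2:**
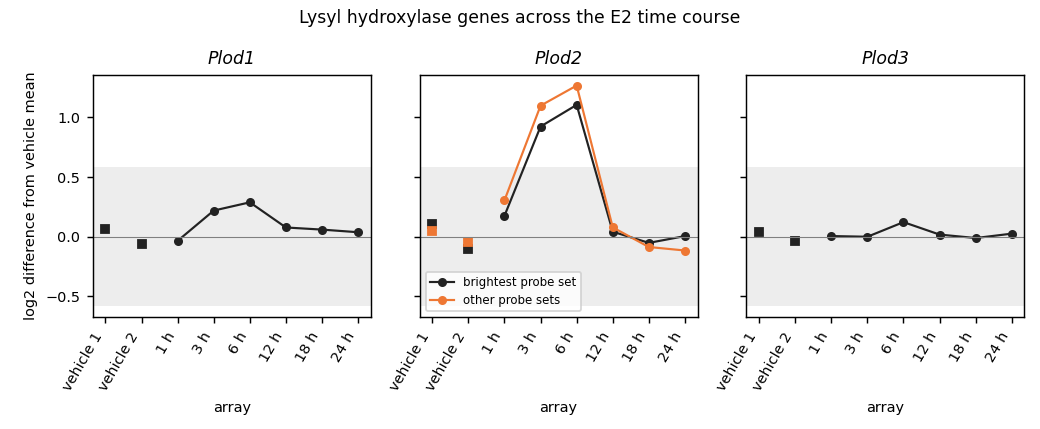
Log2 difference of the lysyl hydroxylase genes Plod1, Plod2 and Plod3 from the vehicle mean on each array, with vehicle arrays as squares, E2 arrays as joined circles, the brightest probe set in black, another probe set above the level limit in orange and the range within 1.5-fold shaded. Both Plod2 probe sets leave the shaded band at 3 and 6 h, and Plod1 (at most 0.29) and Plod3 stay inside it.

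The prolyl 4-hydroxylases stayed near vehicle. P4ha1 read 661 and 642 on the vehicle arrays, then 618, 660, 706, 611, 643 and 655. P4ha2 read 1055 and 898, then 888, 908, 1089, 873, 942 and 949. In both genes the 6 h array was the highest and the 12 h array the lowest, and early and late windows overlapped vehicle. The early difference was 0.02 ± 0.0638 for P4ha1 and -0.02 ± 0.0971 for P4ha2, and the late differences were -0.03 and -0.08 (limma, adjusted p at least 0.804 for each). P4ha3 was below the level limit. The promoters of both measured genes are shown because they hold the core ACGTG of hypoxia response elements, the route by which low oxygen is known to raise prolyl and lysyl hydroxylases. The sequences are the 250 bases before the transcription start in RefSeq (GRCm38.p6), P4ha1 at chr10:59323046-59323295 and P4ha2 at chr11:54100674-54100923, both on the plus strand, with capitals for matches on either strand to any of 7 motifs.
P4ha1: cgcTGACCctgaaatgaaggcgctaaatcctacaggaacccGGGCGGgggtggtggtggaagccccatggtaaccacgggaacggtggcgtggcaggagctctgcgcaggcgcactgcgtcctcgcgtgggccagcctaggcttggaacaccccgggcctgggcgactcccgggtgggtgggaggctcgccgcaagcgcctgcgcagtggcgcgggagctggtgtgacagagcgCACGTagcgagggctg
P4ha2: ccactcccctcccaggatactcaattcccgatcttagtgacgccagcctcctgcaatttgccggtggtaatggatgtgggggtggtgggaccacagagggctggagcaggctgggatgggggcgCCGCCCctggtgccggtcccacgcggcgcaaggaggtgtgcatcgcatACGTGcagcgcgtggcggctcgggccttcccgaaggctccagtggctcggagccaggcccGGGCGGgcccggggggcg
The 7 motifs were the full estrogen response element (GGTCA, any 3 bases, then GGTCA read on the other strand), its shorter core GGTCA (which the full element contains), the AP-1 site TGANTCA, the hypoxia core ACGTG, the CCAAT box, the TATA box TATAAA and the GC box GGGCGG. The capitals in P4ha1 are the core GGTCA read on the other strand, a GC box and ACGTG on the other strand, and those in P4ha2 are 2 GC boxes around an ACGTG.

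Of the 52 members 39 had a promoter in the table used, and Plod2 was not among them. The full estrogen response element was found in 0 of the 39, and in 0.0639% of all 32851 promoters of that length. Its shorter core was in 15 (38.5%, against 35.2% of all promoters). The hypoxia core was in 7 (17.9%, against 16.6%), namely Col11a2, Col1a2, Col4a4, Col5a1, P4ha1, P4ha2 and Plod3. The AP-1 site was in 1, Col6a1 (2.56%, against 6.75%), the CCAAT box in 14 (35.9%, against 33.8%) and the TATA box in 6 (15.4%, against 12.4%). GC boxes were in 25 of 39 (64.1%, against 32.7%), the widest gap to all promoters among the 7 motifs. Members were counted by gene, and the background by promoter without a limit to genes on the array, so the shares are of unlike sets. These are matches of letters only, and no test was made.

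Of the lysyl oxidases, which start cross-linking, Lox varied most from array to array. Lox read 3014 and 2571 on the vehicle arrays, then 2499, 2636, 3467, 2246, 2600 and 2903. Its highest value was at 6 h and its lowest at 12 h, with the rest in or near the vehicle range, and it had the widest range of the set after Plod2 (0.63 on the log2 scale). The early difference was 0.03 ± 0.145 and the late difference -0.12 ± 0.145, without a call in limma (adjusted p = 0.998 and 0.815). Loxl1, the oxidase tied to elastic fibres, read 3666 and 3563, then 3809, 3519, 4117, 3700, 3851 and 3810. All 3 late arrays lay above both vehicle arrays, by little, for a late difference of 0.07 ± 0.065 (limma, adjusted p = 0.756). Loxl3 read 357 and 308, then 324, 303, 372, 314, 314 and 349. Loxl4 read 218 and 203, then 210, 215, 228, 196, 211 and 233. In both genes each window overlapped vehicle, with late differences of -0.03 and 0.02. At 6 h all 9 enzymes above the level limit lay above both vehicle arrays, on the array where 38.6% of all genes did.

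The main stromal collagens were steady throughout the day. Col1a1, a chain of type I collagen, read 15626 and 14919 on the vehicle arrays, then 15228, 14987, 16618, 13612, 15026 and 15031. Col1a2, its partner chain, read 15532 and 15115, then 15367, 15260, 17004, 14036, 15492 and 15500. Both chains were highest at 6 h and lowest at 12 h, and on every other E2 array they lay inside the vehicle range. The early difference was 0.03 ± 0.0659 (95% interval -0.12 to 0.18) for Col1a1 and 0.05 ± 0.0665 for Col1a2, and the late differences were -0.07 and -0.03. The change of Col1a1 minus that of Col1a2 stayed between -0.04 and -0.01 at all 6 times. Col3a1, the type III chain of loose stroma, read 19900 and 20843, then 21266, 19466, 21104, 19913, 21178 and 19787. Its arrays had no order by time, and its differences were 0.02 and -0.01.

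The type V collagens, which start fibrils and limit their width, lay highest at 6 h. Col5a1 read 4102 and 3566 on the vehicle arrays, then 3889, 4294, 4821, 3811, 4144 and 4261. Its 3, 6, 18 and 24 h arrays were above both vehicle arrays. The early difference was 0.17 ± 0.0945 (limma, adjusted p = 0.931) and the late difference 0.09. At 6 h 2 further Col5a1 probe sets stood at 0.28 and 0.36, beside 0.33 for the brightest. Col5a2 read 7525 and 7349, then 7587, 7506, 8337, 6440, 7246 and 7535. It was lowest at 12 h, and the late window lay -0.14 ± 0.0661 from the early one (limma, adjusted p = 0.27). Col5a3 read 4796 and 4181, then 4541, 4639, 5285, 4861, 4930 and 4917. Its 3 late arrays all exceeded both vehicle arrays, with a late difference of 0.13 ± 0.077 (limma, adjusted p = 0.66). Col2a1, the cartilage collagen, and Col27a1 had early differences of -0.07 and -0.06, and Col11a1, Col11a2 and Col24a1 were below the level limit.

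Among the type IV collagens the pair of common chains differed little from vehicle and the minor chain Col4a6 lay higher on the late arrays, without passing the test. Col4a1 read 7563 and 7584 on the vehicle arrays, then 8032, 7604, 8492, 8718, 8399 and 7172. Col4a2, its partner in every basement membrane, read 4777 and 4728, then 4825, 4564, 5009, 5366, 5065 and 4566. Both genes were highest at 12 h and lay below both vehicle arrays at 24 h, so the late window overlapped vehicle. Their differences from 6 to 24 h were 0.17, 0.20, 0.15 and -0.08 for Col4a1 and 0.08, 0.18, 0.09 and -0.06 for Col4a2. The change of Col4a1 minus that of Col4a2 stayed between -0.02 and 0.09. In RefSeq the 2 genes are neighbours read from opposite strands, and their windows around the start site share 78 bases. The late differences were 0.09 ± 0.0823 for Col4a1 (a second probe set gave 0.09) and 0.07 ± 0.0706 for Col4a2.

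Col4a6, a chain of the basement membrane network around smooth muscle and mammary myoepithelium, read 211 and 233 on the vehicle arrays, then 240, 227, 242, 296, 278 and 254. All 3 late arrays lay above both vehicle arrays and above all 3 early arrays, with the highest at 12 h. The late difference was 0.31 ± 0.0773 (95% interval 0.14 to 0.49), the smallest p of the set in that comparison (limma, adjusted p = 0.634). The late minus early difference was 0.22 ± 0.0691 (limma, adjusted p = 0.159). With the mean of fibroblast markers in the fit these were 0.21 (limma, adjusted p = 0.414) and 0.06 (limma, adjusted p = 0.79). The second Col4a6 probe set, below the level limit, lay at 0.19, 0.22 and 0.17 on the late arrays. Myoepithelial markers (7 of 10 genes) averaged 0.15, 0.16, 0.16, 0.18, 0.15 and 0.09 at the E2 times, and -0.03 and 0.03 on the vehicle arrays. The log2 of their summed level was 12.66 to 12.72 on the vehicle arrays, 12.79 to 12.81 on the early arrays and 12.73 to 12.84 on the late arrays, and their part in the Col4a6 values was not tested. The 250 bases before the Col4a6 start (chrX:141474077-141474326, minus strand, GRCm38.p6) are shown as the promoter of the type IV gene with the largest difference. The capitals mark a GC box, the only match to the 7 motifs.
Col4a6: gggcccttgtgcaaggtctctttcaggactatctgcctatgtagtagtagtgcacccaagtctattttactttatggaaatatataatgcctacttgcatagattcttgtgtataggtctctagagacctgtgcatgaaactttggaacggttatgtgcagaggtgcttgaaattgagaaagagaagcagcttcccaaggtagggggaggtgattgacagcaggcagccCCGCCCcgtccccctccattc

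The other minor chains gave smaller values. Col4a5, which lies next to Col4a6 on the X chromosome and pairs with it, read 466 and 470 on the vehicle arrays, then 517, 434, 397, 413, 509 and 484. It was low at 3, 6 and 12 h and high at 1 and 18 h, and by these probe sets the change of Col4a5 minus that of Col4a6 ran from -0.60 (at 12 h) to 0.03. A second Col4a5 probe set above the level limit lay at 0.00 at 3 h, -0.18 at 6 h and 0.13 at 12 h, where the brightest lay at -0.11, -0.24 and -0.18, so the low value at 12 h rests on 1 probe set. Its window differences were -0.07 and -0.00. Col4a3 read 243 and 238, then 233, 252, 283, 271, 280 and 273. From 3 h on every array exceeded both vehicle arrays, and the late difference was 0.19 ± 0.0778 (limma, adjusted p = 0.648). Col4a4, the neighbour and partner of Col4a3, was below the level limit.

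Of the other collagens, Col14a1 and Col8a1 lay farthest below vehicle on single arrays. Col14a1, a collagen that sits on the surface of fibrils in connective tissue, read 3776 and 3799 on the vehicle arrays, then 4095, 3881, 4094, 2814, 3112 and 3689. All 3 early arrays were above and all 3 late arrays below both vehicle arrays, with 12 and 18 h lowest. The late window lay -0.34 ± 0.0843 from the early one, the smallest p of the set in that comparison (limma, adjusted p = 0.11), and -0.25 ± 0.0942 from vehicle (limma, adjusted p = 0.634). Without the 12 h array these were -0.25 and -0.16. Both further Col14a1 probe sets were low at 12 h (-0.55 and -0.54) and at 18 h (-0.51 and -0.25). But at 6 h they lay at -0.14 and -0.04 where the brightest lay at 0.11, so the early side of the pattern rests on 1 probe set. At 24 h they lay at -0.20 and 0.02, where the brightest lay at -0.04. Fibroblast markers (13 genes) averaged 0.02, 0.01, 0.05, -0.10, -0.07 and -0.01 at the E2 times, and the log2 of their summed level was 15.63 to 15.66 on the vehicle, 15.67 to 15.71 on the early and 15.60 to 15.64 on the late arrays. With that mean in the fit the late minus early difference of Col14a1 was 0.02 (limma, adjusted p = 0.923), and with the muscle mean it was -0.27 (limma, adjusted p = 0.0449).

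Col8a1, a short chain of the matrix around vessels, read 458 and 433 on the vehicle arrays, then 472, 399, 334, 354, 423 and 479. It was lowest at 6 and 12 h and lay above both vehicle arrays at 1 and 24 h. The differences were -0.42 at 6 h and -0.33 at 12 h (7 group means in limma, adjusted p = 0.22 and 0.733). A second probe set above the level limit gave -0.60 and -0.40 at those times, at 6 h just beyond 1.5-fold from the vehicle mean, though not from both vehicle arrays. The early difference was -0.16 and shrank to -0.04 without the 6 h array. The Col8a1 promoter (chr16:57754738-57754987, minus strand, GRCm38.p6) is shown as the second of the collagens far from vehicle for which a sequence was at hand. All its capitals are GC boxes on the other strand.
Col8a1: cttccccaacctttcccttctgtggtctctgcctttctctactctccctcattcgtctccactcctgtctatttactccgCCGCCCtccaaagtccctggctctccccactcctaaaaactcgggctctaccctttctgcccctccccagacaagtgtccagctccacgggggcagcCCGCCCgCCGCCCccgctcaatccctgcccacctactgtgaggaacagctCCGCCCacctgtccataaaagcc

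Col12a1, a relative of Col14a1, read 829 and 741 on the vehicle arrays, then 733, 809, 818, 663, 711 and 807. It too was lowest at 12 h (-0.24, and -0.52 for a second probe set above the level limit), with the 1 and 18 h arrays also below both vehicle arrays. Its late difference was -0.11 ± 0.089 (limma, adjusted p = 0.708), and -0.26 for that second probe set.

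**Figure D3:**
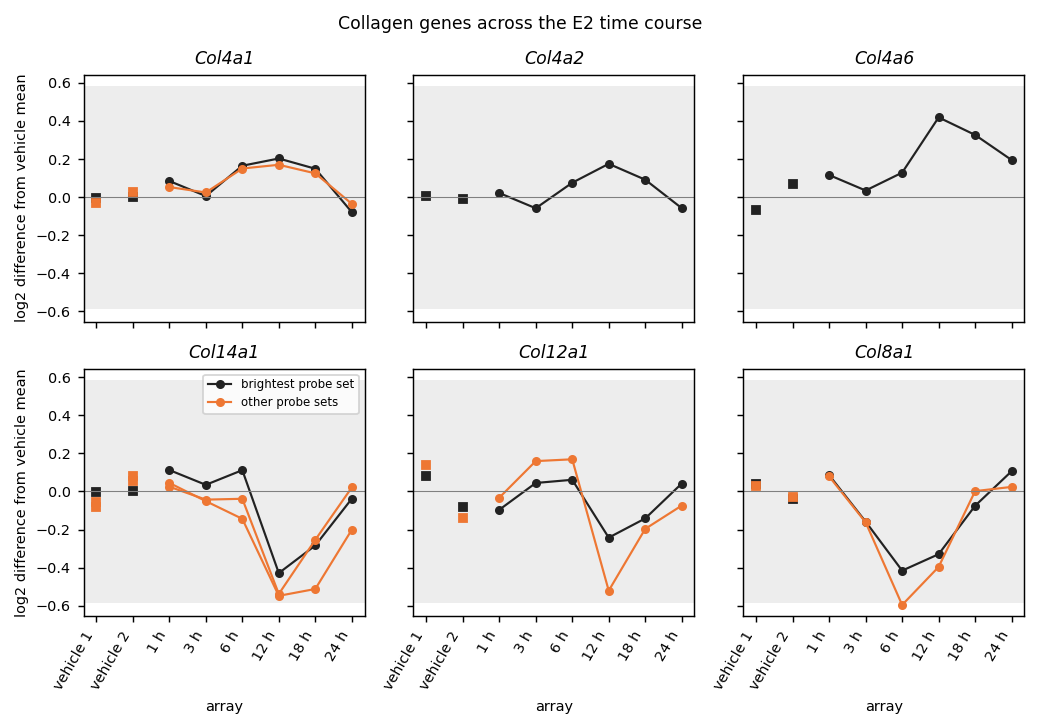
Log2 difference from the vehicle mean on each array for Col4a1, Col4a2, Col4a6, Col14a1, Col12a1 and Col8a1, with vehicle arrays as squares, E2 arrays as joined circles, the brightest probe set in black, further probe sets above the level limit in orange and the range within 1.5-fold shaded. Col4a6 is highest at 12 h (0.42), Col14a1 and Col12a1 are lowest at 12 h in every probe set drawn, and Col8a1 is lowest at 6 h.

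Type VI collagen, the filament collagen around cells and fat, was slightly above vehicle early. Col6a1 read 5831 and 5711 on the vehicle arrays, then 5989, 5976, 6188, 5356, 5811 and 5878. Col6a2 read 6258 and 5872, then 6280, 6210, 6826, 5752, 6278 and 6348. Col6a3 read 8129 and 8112, then 8532, 8585, 9772, 8150, 8635 and 8307. In Col6a1 and Col6a3 all 3 early arrays exceeded both vehicle arrays, and Col6a3 did so on all 6 E2 arrays. The early difference of Col6a3 was 0.14 ± 0.0651 (limma, adjusted p = 0.91), of which the 6 h array gave 0.27. For Col6a1 and Col6a2 the early differences were 0.07 and 0.09, and the late ones -0.02 and 0.01.

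The remaining tested collagens lay close to vehicle. Col25a1, a membrane collagen, read 286 and 272 on the vehicle arrays, then 286, 284, 329, 295, 325 and 318. Its late arrays all exceeded the vehicle arrays, and the late difference was 0.16 ± 0.077 (limma, adjusted p = 0.648). Col15a1 and Col18a1, both of basement membrane zones, had late differences of 0.11 and 0.07. Col9a1 read 824 and 715, then 721, 761, 719, 770, 810 and 825. Its late arrays all exceeded the early arrays, by 0.13 ± 0.06 (limma, adjusted p = 0.28), but both windows lay within or near the vehicle range. Col7a1, Col16a1 and Col20a1 were flat, with early differences of at most 0.07. The 17 members below the level limit were Col4a4, P4ha3, Col11a1, Col11a2 and Col24a1 named above, with Col6a4, Col6a5, Col8a2, Col9a2, Col9a3, Col10a1, Col13a1, Col17a1, Col19a1, Col22a1, Col23a1 and Col26a1. Their differences from vehicle ran from -0.16 (P4ha3 at 12 h) to 0.34 (Col4a4 at 3 h), and 17 of 17 stayed within 1.5-fold of the vehicle mean.

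The classes were set side by side, and no test was made between them. In the early window the median difference was 0.04 for fibrillar, 0.08 for type IV and 0.07 for other collagens and 0.04 for the enzymes. In the late window it was 0.00, 0.09, 0.04 and -0.00. Type IV was thus the class with the highest late median. All 5 of its genes lay higher in the late than in the early window, while 0 of the 9 enzymes did (40.4% of all genes tested did). Some of these differences were near 0, such as 0.006 for Col4a1 and -0.008 for Loxl1. A dimmer Col4a3 probe set, below the level limit, went the other way, at 0.21 early and 0.08 late. The late minus early median of the enzymes was -0.05, and 0.0014 without the 6 h array. The spread of a class median between arrays of a group (pooled SD) was 0.0684 for fibrillar, 0.0576 for type IV, 0.0414 for other collagens and 0.0872 for enzymes. It exceeded both window medians for fibrillar collagens and enzymes, and both medians exceeded it for type IV. For other collagens the early median exceeded it and the late median was about equal to it (0.0422 against 0.0414). With 1 array left out, the fibrillar medians ran from -0.00 to 0.07 early and -0.06 to 0.04 late. Those of the enzymes ran from -0.00 to 0.10 early and -0.06 to 0.07 late. Those of type IV ran from 0.02 to 0.09 early and 0.06 to 0.18 late, and those of other collagens from 0.03 to 0.08 and -0.03 to 0.06. In both of these classes the lowest early median was below the spread. By array, the 6 h medians were 0.14, 0.13, 0.11 and 0.17 in that order, and at 12 h they were -0.04, 0.18, 0.01 and -0.08. All class medians were thus above vehicle at 6 h and parted at 12 h, when that of type IV was high and that of the enzymes low. Within type IV, Col4a5 lay at -0.18 at 12 h by its brightest probe set. Luminal epithelial markers (14 tested) averaged -0.08, -0.38, -0.28, 0.27, 0.20 and 0.14 at the E2 times and -0.02 and 0.02 on the vehicle arrays, with 13 of 14 higher late than early and 2 of them called in limma. The log2 of their summed level was 13.5 on both vehicle arrays, 13.1 to 13.4 on the early and 13.7 to 13.9 on the late arrays. Lymphocyte markers (10 tested) averaged 0.12, 0.12, -0.11, 0.10, -0.42 and -0.35, and 10 of 10 were lower late than early. The part of these cells in the class medians was not tested.

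**Figure D4:**
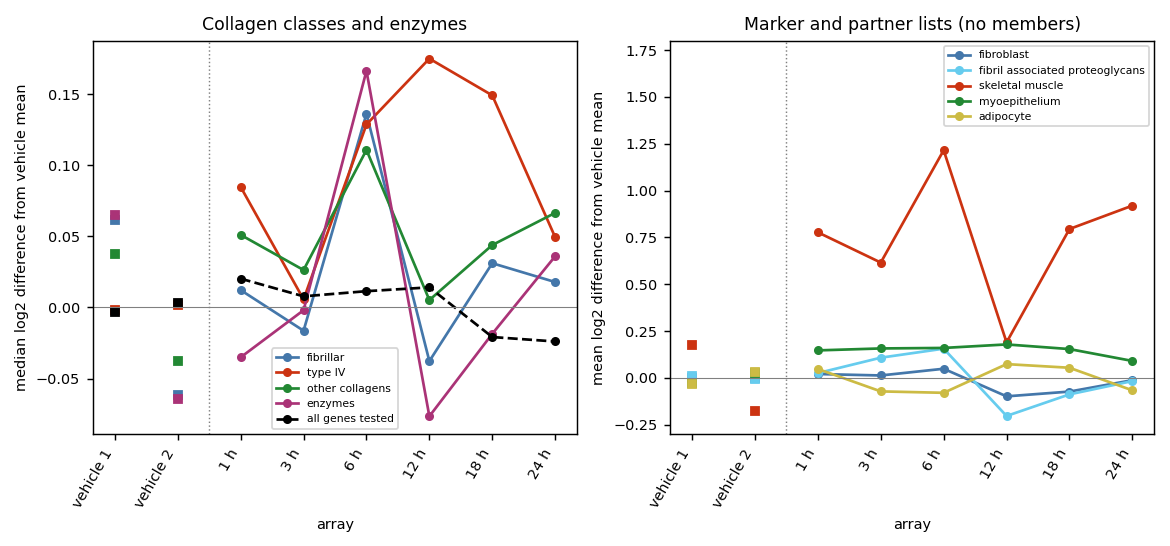
Left, median log2 difference from the vehicle mean over the genes of each class on each array, with all genes tested as a dashed line. Right, mean log2 difference of marker and partner lists, with vehicle arrays as squares and E2 arrays as joined circles in both panels. At 6 h the class medians lie between 0.11 and 0.17, on the array where skeletal muscle markers average 1.22.

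Genes whose arrays did not overlap between groups were counted in each direction. Early above vehicle held 5 of 35 members (14.3%, background 13.7%), namely Col14a1, Col4a1, Col6a1, Col6a3 and Plod2, and early below vehicle 0 (background 6.23%). Late above vehicle held 7 (20%, background 11.1%), namely Col15a1, Col25a1, Col4a3, Col4a6, Col5a3, Col6a3 and Loxl1. Late below vehicle held only Col14a1 (2.86%, background 13.3%). Late above early held 4 (11.4%, background 8.96%), namely Col27a1, Col4a6, Col7a1 and Col9a1, and late below early 3 (8.57%, background 15%), namely Col14a1, Col6a1 and Plod2. On the E2 arrays from 1 to 24 h, 16, 9, 27, 10, 14 and 20 of the 35 members lay above both vehicle arrays (background 39.7%, 35%, 38.6%, 37.9%, 27.2% and 29%). In the same order, 6, 8, 2, 14, 4 and 4 lay below both (background 22.1%, 28.6%, 30.3%, 25.2%, 44.2% and 46.4%). The count above was highest on the 6 h array. Past 1.2-fold in the same direction from both vehicle arrays lay Plod2 at 3 h (background 2.24%) and Col6a3 and Plod2 at 6 h (2.16%) on the high side, and Col8a1 at 6 h (1.39%) on the low side. Col4a6 at 12 h (background 0.715%) was past it on the high side, and Col14a1 and Col8a1 at 12 h (1.04%) and Col14a1 at 18 h (1.37%) on the low side.

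**Figure D5:**
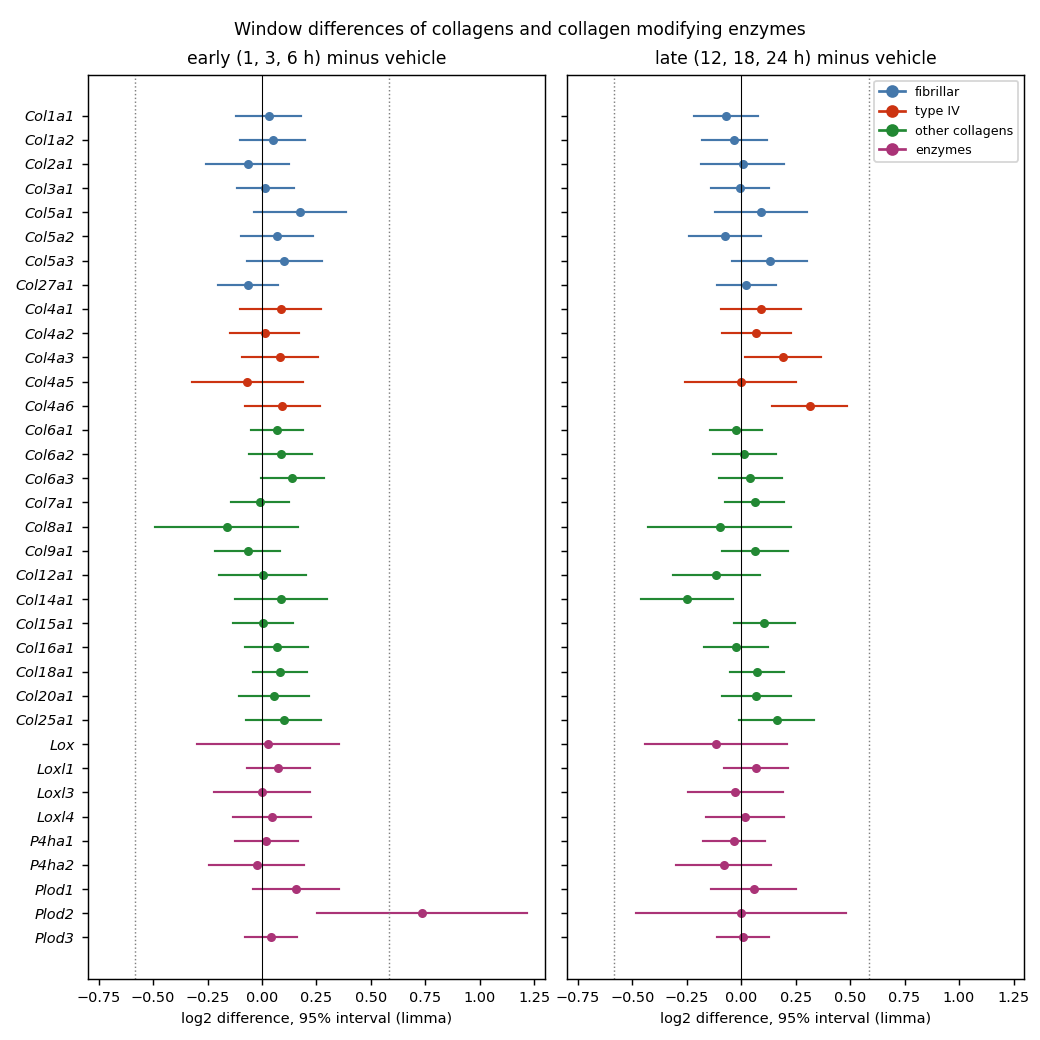
Difference of each of the 35 tested genes from vehicle (log2, point) with its 95% interval from limma (line) in the early window (left) and the late window (right), coloured by class, with dotted lines at 1.5-fold. The interval of Plod2 in the early window (0.25 to 1.22) reaches past 1.5-fold, and every other interval in both panels lies inside the dotted lines.

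Genes that work with collagens were taken from fixed lists. Of 18 tested genes for collagen folding, processing and cross-linking outside the set, 0 were called in either window (median 0.02 early and -0.01 late). At single times limma with 7 group means called 1 of them, Tgm2, a transglutaminase that cross-links matrix proteins, at 0.98 at 3 h (adjusted p = 0.0281) and 1.10 at 6 h (adjusted p = 0.0277), which were also the times of Plod2. The courses parted at 12 h, when Tgm2 lay at 0.60 and Plod2 at 0.04. Fkbp14, a prolyl isomerase that acts on collagen, lay at 0.37 and 0.36 at 3 and 6 h. Lower values were seen in Pcolce2 (-0.25, -0.25 and -0.27 at 3, 6 and 12 h) and P3h3 (-0.05, -0.03 and -0.31). In the early window 11 of the 18 genes lay above vehicle and 7 below. Of 13 fibril-associated proteoglycans and glycoproteins, 0 were called in either window, with a median of 0.05 early and -0.08 late. In the late window 12 of the 13 lay below vehicle, as did 5997 of all 10916 genes tested. Thbs2, a matricellular protein needed for normal collagen fibrils, rose at 3 h (0.77, limma with 7 group means, adjusted p = 0.0218) and 6 h (0.81, adjusted p = 0.0277). At 12 h Aspn lay at -0.57, Bgn at -0.39 and Tnxb at -0.34, on the array where Col14a1 and Col12a1 were lowest.

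Laminins, nidogens and other partners of type IV collagen (11 tested) had medians of 0.04 and -0.01, with 0 called. At 3 h the laminin chain Lama5 lay at 0.32, and Lama4, Lamb1 and Nid2 at -0.23, -0.09 and -0.07. Collagen receptors (6 tested) had medians of 0.04 and -0.07, hypoxia response genes (16 tested) 0.04 and -0.00, and targets of transforming growth factor β (13 tested) 0.08 and -0.04, each with 0 called in either window. Among the hypoxia genes Vegfa, the vascular growth factor, lay at 0.33, 0.42 and 0.02 at 1, 3 and 6 h. At the same times Adm, adrenomedullin, lay at 0.21, 0.42 and 0.23, Bnip3 at 0.10, 0.14 and -0.04 and Aldoa at 0.04, -0.05 and 0.18. The mean of the 16 hypoxia genes was 0.06, 0.02 and 0.06 at these times. None of the hypoxia list passed at a single time in limma with 7 group means.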

How the data were processed

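The deposited values are intensity values of 45101 probe sets on 8 Affymetrix arrays, on a linear scale. Per the submitters' processing notes GCOS 1.0 and RMA were used, without a role for each. Array medians were nearly equal as deposited, and no further scaling was applied. The deposited intensity values were put on a log2 scale. A gene took its probe set with the highest mean, from GEO's platform annotation (34945 probe sets with 1 symbol, 932 with several, 9160 with none). Levels of different probe sets were compared to choose the probe set of a gene, for the level limit and to name the brightest members. Marker levels were summed over genes. Otherwise genes were compared by their differences between arrays.

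Windows were fitted in limma 3.58.1 (R 4.3.3) on all 10916 genes above the 40th percentile, with a mean-variance trend, 5 residual degrees of freedom and Benjamini-Hochberg adjustment, two-sided, and checked on simulated data. Single times used 7 group means and 1 residual degree of freedom. The members and lists were chosen with earlier results of these data known. Named in full were the 8 brightest members, those at least 1.5-fold from both vehicle arrays, the 4 smallest p-values per comparison and all type IV collagens and enzymes above the limit, and for lists up to 4 genes with the largest differences. Further members were described after their values were seen. Alternatives were other filters, quantile or median scaling, the mean of probe sets, no trend, robust eBayes (statmod 1.5.0), marker means as covariates, other folds, types XV and XVIII placed with type IV, and each array left out.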

Additional observations from a re-analysis of the deposited data

Results flagged for a closer look

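Col14a1 and Col9a1 lay on opposite sides of the vehicle mean in the 2 windows, on every array. Col14a1 lay above it on all 3 early arrays and below it on all 3 late arrays, for a late minus early difference of -0.34 (limma, adjusted p = 0.11), which is not a call. Col9a1 lay below it early and above it late, for a late minus early difference of 0.13 (limma, adjusted p = 0.28), also not a call. Such opposite windows were found in 2 of 35 members (5.71%), beside 827 of all 10916 genes tested (7.58%). In Col14a1 the early side was seen in the brightest probe set and not in the other probe sets. The late side was not complete in 1 of those, which lay at 0.02 at 24 h. No group had the 4 arrays needed to look for an outlying array.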

How the results depend on the processing

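No paired analysis was possible because each E2 time had 1 array, so that the groups share fewer than 2 replicate numbers. Genes called in early against vehicle were 0 as reported, 1 without a level filter, 1 with the mean of all probe sets, 10 with the mean of muscle markers as a covariate, 2 with the adipocyte mean, and 0 to 49 with an array left out (49 without 1 h, 8 without 6 h, 3 without 3 h). Late against vehicle stayed at 0 with any array left out. Late against early was 60 as reported, 32 with quantile normalization, 23 with the mean of all probe sets, 1067, 15 and 0 with the muscle, adipocyte and fibroblast means, and 0 to 232 with an array left out (232 without 1 h, 13 without 12 h, 8 without 3 h, 37 without either vehicle array, 0 without 18 h or 24 h). Members called were 0 to 1 with an array left out, for early against vehicle and for late against early, the 1 being Plod2 without the 1 h array (1.02 and -1.02), and 1 in late against early with the muscle mean, Col14a1 (-0.27). With the fibroblast mean Col14a1 turned to 0.0179. The cause was not tested in either case.

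At 2-fold, 0 members passed at 3 h and 0 at 6 h, where Plod2 lay just under that limit against vehicle array 1. At 1.2-fold, 3 passed at 6 h, 3 at 12 h and 1 at 18 h. The type IV early median was 0.0130 with the mean of all probe sets, and 0.0176 to 0.0941 with an array left out. The type IV late median was 0.0622 to 0.176 and that of other collagens -0.0322 to 0.0598 with an array left out. With types XV and XVIII moved to the type IV class, the late minus early median of other collagens was -0.0720. The number of arrays limits every value: 1 array per time leaves no replicate check of a single time, and the calls of Plod2 at 3 and 6 h rest on the spread of 2 vehicle arrays.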
